A study of Tribolium castaneum with 183 samples.

Results

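The 200 genes described here were those whose transcript level differed least from one female to the next, over all sequenced females of the red flour beetle *Tribolium castaneum*. They were chosen on the data themselves. Among the 6025 genes whose mean reached 20 cpm, that is counts scaled to a common library size, the 200 members had the smallest standard deviation (SD) of log2 cpm over all females, whatever the condition. The count table held 17078 genes in all. Because the rule used every female, each level, SD and difference between conditions of the members given here is a description, and none of them supports the choice.

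RNA came from whole bodies of single females of the Cro1 strain, a wild-collected strain kept in the laboratory under the Control condition. Control (47 females) was 33°C and 70% relative humidity, Dry (48 females) was 33°C and 30%, Hot (45 females) was 37°C and 70%, and Hot-Dry (43 females) was 37°C and 30%. The labels give the females as reproducing and 8 weeks old, whereas the study's text gives an older age, and which holds could not be settled here. The first number in a female's name, read here as her full-sib family, took 12 values, and every family had females in all conditions; sisters of 1 family and condition had shared a vial as larvae. In a whole-body extract, fewer cells of a type and less RNA per cell cannot be told apart. A stable level here is one that is stable relative to the bulk of the other genes, to which levels were scaled.

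Genes that every cell needs, for tasks such as protein breakdown, transcription or splicing, are often called housekeeping genes. Some of them serve as reference genes: in quantitative PCR, the level of a gene of interest is expressed relative to a transcript that is assumed not to vary. That assumption has to be checked in each tissue and treatment, and a gene that is constant among tissues need not be constant among animals. A small SD in a sequencing table describes only the reads a gene took in these females, relative to the genes used for scaling.

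All members had TC identifiers, which the files did not pair with gene names, and none was found in the RefSeq table used here. They are therefore given by identifier. The only annotation at hand was that of the study's own gene ontology lists, which were drawn up from genes that responded in these females and which held 12 of the 200 members. Those were annotated as protein serine/threonine kinases (TC016079 and TC008141), as zinc or nucleic acid binding (TC005009, TC003418, TC002395 and TC004865), as ion binding (TC004145 and TC009432), as a monovalent cation transporter (TC006281), as part of coenzyme biosynthesis (TC012307), and in the broad classes of catalytic activity (TC004606) and organonitrogen metabolism (TC009847). The lists say nothing of the other members.

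Between 4873334 and 15533288 reads were counted per female, with a median of 8893822. The members took 1.38% to 2.51% of a female's counts. Every member had reads in every female, and the lowest count of any member in any female was 106. The 2 vitellogenins, the yolk protein precursors, took 0.0756% to 30.1% of the counts, so the share of reads left for all other genes differed between females; the levels below were scaled for this by trimmed mean of M-values (TMM) factors, which ran from 0.71 to 1.30.

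The SD of the members ran from 0.0963 to 0.148 on the log2 cpm scale, with a median of 0.137. For the other 5825 genes it ran from 0.148 to 4.04, with a median of 0.288. On the linear scale the members' coefficient of variation was 6.63% to 10.7% (median 9.45%), against a median of 19.8% for the other genes. The female with the highest level had 1.44 to 2.57 times the cpm of the female with the lowest (median 1.75), and this ratio was under 2 for 179 of the 200 members. The median ratio of the other genes was 3.20. The rule drew its line through a dense part of the distribution: the last members, TC011210 and TC001621, had SDs of 0.1478 and 0.1481, and the first genes left out, TC007678 and TC000973, had 0.1481 each.

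**Figure D1:**
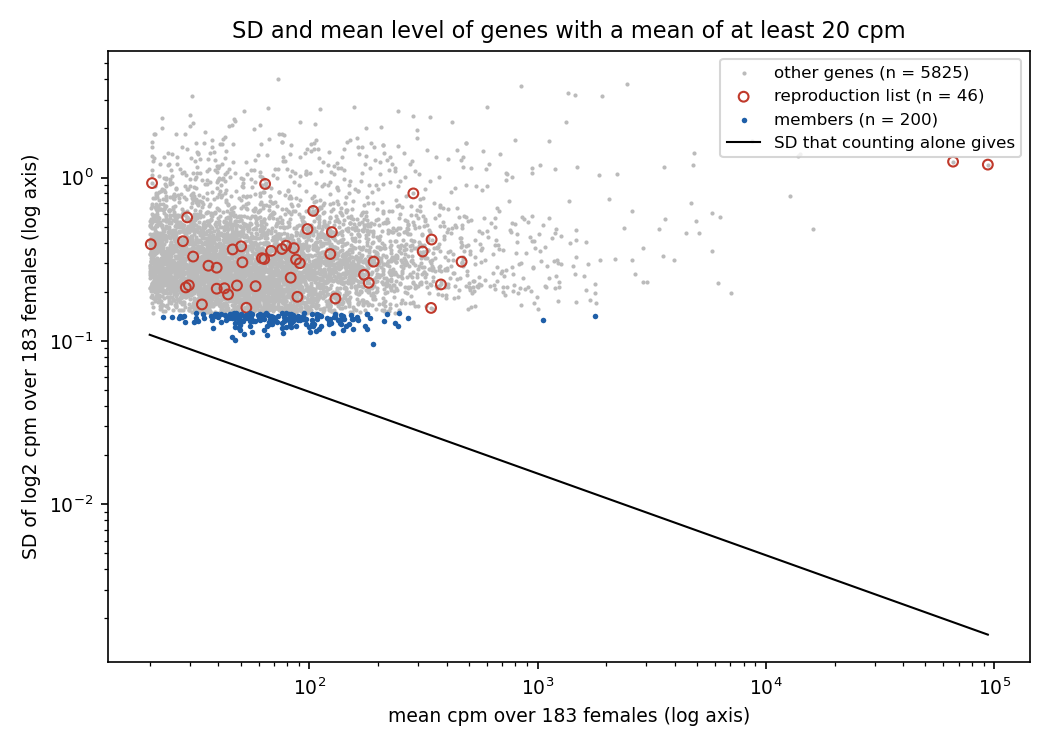
SD of log2 cpm (vertical, log axis) against mean cpm (horizontal, log axis) over all females, 1 point per gene at 20 cpm or more on average. The 200 members (blue) form the lower edge between SDs of 0.0963 and 0.148, the 46 genes of the study's reproduction list (red rings) all lie above them, and the line is the SD that read counting alone gives.

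TC010870 had the smallest SD of all, 0.0963. Its level was 170 to 223 cpm in Control females (median 188), 165 to 210 cpm in Dry females (median 189), 158 to 228 cpm in Hot females (median 194) and 144 to 233 cpm in Hot-Dry females (median 189). The ranges of the 4 conditions overlapped over most of their width, and the highest and the lowest female of the series were both Hot-Dry. The second, TC015204 (SD 0.102), had 42.5 to 54.4 cpm in Control females, 42.5 to 56.7 cpm in Dry, 40.2 to 53.5 cpm in Hot and 39.3 to 54.8 cpm in Hot-Dry, with medians of 47.6, 48.6, 46.3 and 47.4 cpm in the same order. Its highest female had only 1.44 times the level of its lowest, the smallest such ratio among the members. TC001384 (SD 0.106) ran from 40.5 to 52.5 cpm in Control and from 37.2 to 54.9 in Hot-Dry, with medians of 45.9 and 45.4, and TC012069 (SD 0.109) from 57.0 to 75.7 and from 52.7 to 76.4, with medians of 65.5 and 65.2. For both, the Control range lay within the Hot-Dry range. The next 6, TC010033, TC004679, TC013520, TC004140, TC030734 and TC007992, had SDs of 0.110 to 0.114 and means of 51.6, 76.6, 127, 56.4, 101 and 107 cpm. All of these 10 were also among the 200 genes of smallest SD in each of the 4 conditions taken alone.

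**Figure D2:**
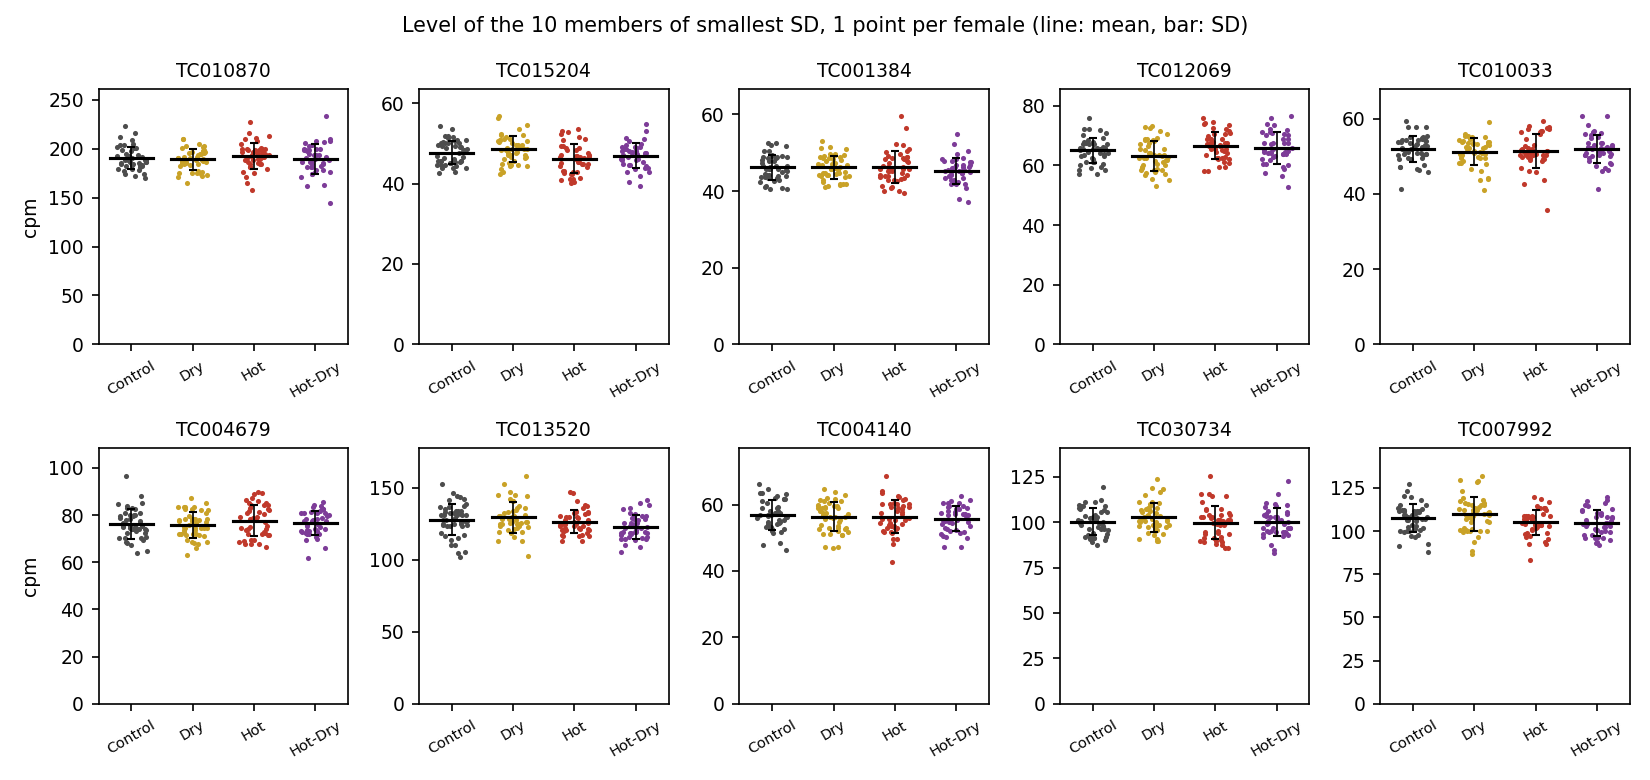
Level in cpm (vertical, from 0) of the 10 members of smallest SD in each female (points) by condition, with the mean (line) and SD (bar). In every panel the 4 clouds overlap; in TC010870 the Hot-Dry females spread from 144 to 233 cpm around a median of 189.

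The members were genes of middle level. Their mean ran from 22.9 to 1794 cpm with a median of 69.3, and that of the other genes had a median of 54.9. Cpm is not corrected for transcript length, so these are amounts of reads and not of transcripts. When the 6025 genes were cut into 10 classes of equal size by mean cpm, the lowest (up to 24.97 cpm) held 1 member and the highest (from 209 cpm) held 8, whereas classes 5 to 9 held 26 to 39 each. At the low end the SD was bounded by counting: at their depth, sampling of reads alone gave the members an SD of 0.0115 to 0.102 (median 0.0586), and a median of 18.3% of their variance, against 4.89% for the other genes. For the 2 lowest members, TC005538 (25.1 cpm) and TC002733 (22.9 cpm), that share was 48.5% and 53.1%. It was as high in some members of small SD and higher level, with 48.5% for TC015204 and 45.7% for TC001384, ranked 2 and 3 by SD. These shares cover counting error only.

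At the other end, 2 members stood far above the rest in reads. TC013431 had a mean of 1794 cpm (SD 0.143), with 1465 to 2367 cpm in Control females, 1446 to 2434 cpm in Dry, 1528 to 2253 cpm in Hot and 1491 to 2305 cpm in Hot-Dry females. TC030666 had a mean of 1062 cpm (SD 0.134) and the same kind of overlap, with medians of 1077, 1037, 1089 and 1083 cpm. The third, TC007173, was already down at 272 cpm. Counting accounted for 0.65% and 1.25% of the variance of the top pair, so nearly all of their spread was among libraries or females. Family took 36.6% and 42.6% of it.

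Condition accounted for little of what variance the members had, and for a similar share in the other genes. Each member's variance was divided, in sequence, between condition, family, the combination of both, and females of the same family and condition. The median shares were 3.99% for condition, 20.8% for family, 21.9% for the combination and 51.6% within family and condition. Those of the other genes were 4.24%, 26.5%, 22.4% and 42.8%. The terms hold 1.65%, 6.04%, 18.1% and 74.2% of the degrees of freedom, the shares that unrelated values would take on average. Family took more than 3 times that share in the median member. The combination of family and condition took 21.9% beside 18.1%, and females within both took less than their share (51.6% beside 74.2%). Over the members, deviations of sisters from the condition means had a mean correlation of 0.301 in the same condition. It was 0.169 for sisters of another number in different conditions. Condition took more than its 1.65%, in the median member (3.99%) as in the median other gene (4.24%). The means of the 12 families differed by 0.21 at the median member between the highest and the lowest family (0.112 to 0.374), and the means of the 4 conditions by 0.0681. For the other genes these ranges had medians of 0.505 and 0.146.

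**Figure D3:**
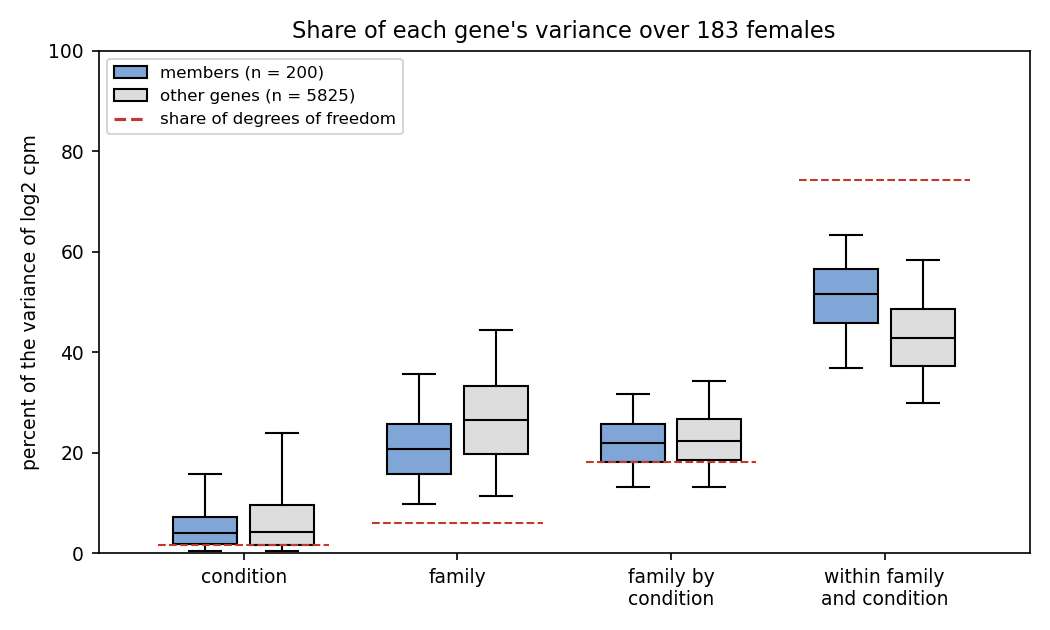
Percent of each gene's variance of log2 cpm (vertical) that went with condition, family, their combination and females within both, for 200 members (blue) and 5825 other genes (grey). Boxes give the quartiles with the median, whiskers the 5th and 95th percentile, dashed lines the share of the degrees of freedom; the within share was 51.6% at the median member and 42.8% at the median other gene.

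The highest and lowest levels were spread unevenly over the families. Family 245 was highest for 30 members and lowest for 3, whereas family 710 was highest for 9. Family 1077 was lowest for 30, and family 103 was lowest for 31. The root mean square of the family deviations over the members was 0.0515 to 0.0699 in the 12 families. When the 200 genes of smallest SD were chosen on 11 families and then examined in the twelfth, which the choice had not used, their median SD there was 0.0958 to 0.149, against 0.177 to 0.308 for all 6025 genes. Of each such 200, 192 to 200 had an SD in the family left out that was below that family's median gene, and 111 to 142 were among its most stable 10% of genes. A gene's mean level, and hence its counting error, is shared between families, and genes of equal level were not compared. The values are therefore a description.

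The ranking by SD was similar between conditions, whose females are separate animals but sisters from the same 12 families, so that the conditions are not independent. Ranked by SD within 1 condition, the 6025 genes had rank correlations of 0.90 to 0.93 between any pair of conditions. This is a correlation across genes, which are not independent replicates and which share mean level and hence counting error. Of the 200 genes of smallest SD in 1 condition, 80 to 92 were also among the 200 of another. Of the members, 119 were among the 200 of Control, 121 of Dry, 128 of Hot and 124 of Hot-Dry; 32 were in all 4 lists and 2 in none. The median SD was 0.126 for Control females, 0.130 for Dry, 0.139 for Hot and 0.134 for Hot-Dry females. In Hot, 67.5% of the members had a larger SD than in Control and in Hot-Dry 60.5%, against 68.9% and 60.4% of all 6025 genes, so the wider spread at 37°C was not particular to the members.

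How the most stable genes differed between conditions was described with edgeR's quasi-likelihood test across all 12113 genes that passed a filter on low counts. All 200 members passed it, and a gene was called at a Benjamini-Hochberg adjusted p of at most 0.05. A gene with a large difference between conditions could not have been chosen, so nothing is read from these counts. In Dry, 0 members were called, with 7 at an unadjusted p under 0.05; over all genes 0.809% were called (0.421% higher and 0.388% lower). Without family 432, 1 member was called in Dry (TC008896, log2 fold change 0.11, edgeR, adjusted p = 0.0466). In Hot, 43 members were called, 10 higher and 33 lower than in Control, or 21.5% of the members (5% higher and 16.5% lower). Of all genes tested, 25.1% were called (12.9% higher and 12.2% lower). Of the 6025 genes of at least 20 cpm on average, 26.3% were called (10.6% higher and 15.7% lower). In Hot-Dry, 53 members were called, 20 higher and 33 lower, or 26.5% (10% higher and 16.5% lower). Over all genes tested, the share was 30.7% (15.7% higher and 15.1% lower). Among the 6025 genes of at least 20 cpm on average, it was 33.9% (13.96% higher and 19.9% lower). The interaction of heat and drought, that is the departure of Hot-Dry from the sum of both single differences, was called in 0 members by edgeR and by DESeq2, with 10 and 13 at an unadjusted p under 0.05, and in 0.00826% of all genes.

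The differences of the members were small, and so were their errors. The median standard error of a member's log2 fold change was 0.028 to 0.029 in the 3 comparisons. No member differed by more than 0.2 on the log2 scale in any of them. The values ran from -0.06 to 0.09 in Dry and from -0.14 to 0.11 in Hot. In Hot-Dry they reached from -0.16 to 0.19. The called members had a median absolute log2 fold change of 0.09 with heat alone and with both stressors, against 0.20 and 0.22 for the other genes of at least 20 cpm that were called. In no comparison did the cpm ranges of Control and the other condition fail to overlap for any member. Overlap was not counted for the other genes, so this describes the members alone. In all, 133 members were called in no comparison, 14 in Hot alone and 24 in Hot-Dry alone. The other 29 were called in both, with the same sign each time, but the comparisons share the Control females. Such combinations were not counted over all genes, and nothing is read from them.

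**Figure D4:**
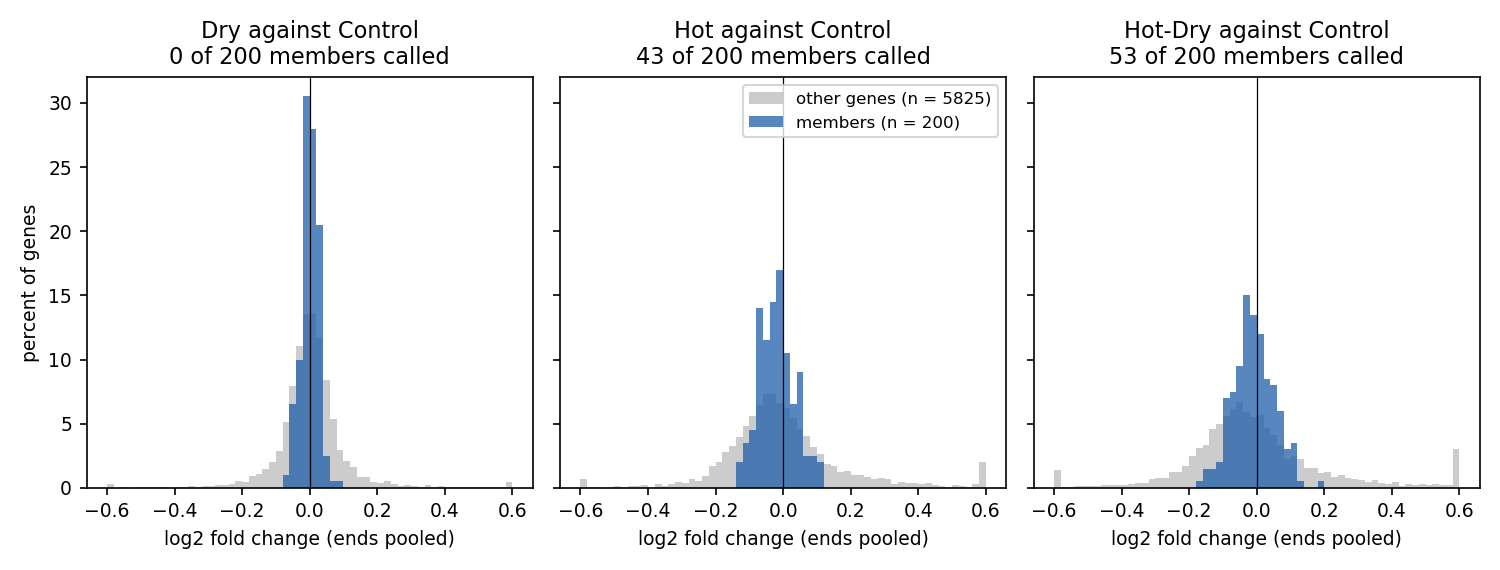
Percent of genes (vertical) by log2 fold change against Control (horizontal, with values beyond 0.6 pooled into the end bars) for 200 members (blue) and 5825 other genes at 20 cpm or more on average (grey). All members lie within 0.2 of 0; 43 were called in Hot, 53 in Hot-Dry and 0 in Dry.

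How many of the called members were higher and how many lower depended on the scaling and on the families. At the median member the log2 fold change was -0.02 for Hot and -0.01 for Hot-Dry. With relative log expression factors 14 of 38 called members were higher in Hot, and with upper-quartile factors 15 of 37, in place of 10 of 43. In Hot-Dry, upper-quartile factors gave 24 higher of 46, in place of 20 of 53. Without family 432, 15 of 29 called members were higher in Hot and 24 of 46 in Hot-Dry. The calls also treat sisters raised in the same vial as independent. With the counts of each family and condition summed, 2 members were called in Hot (TC004145 and TC007512) and 8 in Hot-Dry, beside 6.11% and 10.8% of all genes. With limma-voom and a correlation of 0.35 estimated among females of the same family and condition, 4 members were called in Hot (TC004145, TC008141, TC004865 and TC016110) and 13 in Hot-Dry, beside 6.53% and 12.1%. These few were named after their values were seen. Without family 799, 28 members were called in Hot. For the other factors and the families left out, no share of all genes is set beside the counts. A shift in direction there is therefore not read as particular to the members.

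The member with the largest rise in Hot-Dry was TC012307, which the study's lists place in coenzyme biosynthesis. It had 41.0 to 57.9 cpm in Control females (median 49.9), 39.4 to 61.2 cpm in Dry (median 49.97), 44.3 to 64.2 cpm in Hot (median 53.3) and 49.3 to 77.2 cpm in Hot-Dry females (median 56.2). The Hot-Dry females sat higher: their lowest value lay close to the Control median, and the ranges overlapped between 49.3 and 57.9 cpm. In edgeR its log2 fold change in Hot-Dry was 0.19 ± 0.027 (SE), with an adjusted p of 2.18e-09, and the family mean was higher in 12 of 12 families. In Hot the same gene was higher by 0.11 ± 0.027 (adjusted p = 0.000968), in 10 of 12 families. That call was lost with summed counts and with limma-voom. The call in Hot-Dry held in all 22 alternatives, with log2 fold changes of 0.17 to 0.22.

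TC010420 had the second largest rise in Hot-Dry, with 54.2 to 78.4 cpm in Control (median 66.0) and 59.3 to 87.2 in Hot-Dry (median 71.4). Its log2 fold change was 0.13 ± 0.028 (edgeR, adjusted p = 9.34e-05), higher in 9 of 12 families, and the call was lost with summed counts (adjusted p = 0.0596). TC007820 rose most in Hot, from 43.7 to 65.0 cpm in Control (median 52.8) to 44.1 to 77.2 (median 57.9). That was a log2 fold change of 0.11 ± 0.029 (edgeR, adjusted p = 0.00221), in 11 of 12 families. It was lost with summed counts and with limma-voom.

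Among the falls in Hot, TC004145, annotated as ion binding, had 97.0 to 135 cpm in Control (median 119) and 63.8 to 125 in Hot (median 108). The Hot females sat lower, and 1077-4H, with the 63.8 cpm, stood far below the other Hot females. The log2 fold change was -0.14 ± 0.026 (edgeR, adjusted p = 1.46e-05), and the family mean was lower in 12 of 12 families. It was called in all 22 alternatives. TC003418, annotated to the nucleus and to zinc and nucleic acid binding, had 51.9 to 74.7 cpm in Control (median 61.6) and 44.2 to 72.3 cpm in Hot (median 56.8). Its log2 fold change was -0.13 ± 0.029 (edgeR, adjusted p = 0.000278), and it was lower in 11 of 12 families. It was not called with summed counts or with limma-voom.

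In Hot-Dry the largest falls were those of TC007512 and TC009432. TC007512 had 43.2 to 67.7 cpm in Control (median 56.6) and 35.9 to 57.3 in Hot-Dry (median 51.1), a log2 fold change of -0.16 ± 0.027 (edgeR, adjusted p = 4.01e-07). TC009432, annotated as ion binding, had 123 to 181 cpm in Control (median 149) and 118 to 167 in Hot-Dry (median 132), a log2 fold change of -0.16 ± 0.028 (edgeR, adjusted p = 1.83e-06). Both were lower in 12 of 12 families and were called in all 22 alternatives. For both genes the Hot-Dry females sat lower, and the ranges overlapped.

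Of the 10 members of smallest SD, TC015204 was called in Hot (-0.05 ± 0.022, edgeR, adjusted p = 0.0489) and TC013520 in Hot-Dry (-0.06 ± 0.024, edgeR, adjusted p = 0.0479). Neither was called with summed counts (adjusted p = 0.304 and 0.290) or in limma-voom (adjusted p = 0.345 and 0.337 with an estimated correlation). The other 8 were called in no comparison by edgeR. For TC010870 the log2 fold changes were -0.01 ± 0.020 for Dry, 0.01 ± 0.021 for Hot and -0.01 ± 0.021 for Hot-Dry. 

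Strong correlations between members were few. Over all females the correlation between 2 members was 0.065 on average over 19900 pairs (0.0121 for the other genes), and it exceeded 0.5 in size in 0.467% of them, against 13.6% of the pairs of other genes. The highest was 0.63, between TC008406 and TC013453, and the lowest -0.59, between TC002668 and TC013453. These are descriptions; a low SD leaves little shared variance and a larger share of counting error. The first principal component of the members held 11.2% of their variance, against 18.8% for the 6025 genes. Condition accounted for 6.02% of its variance and family for 20.5%.

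A reference gene is used as a ratio, and a ratio of counts needs no scaling. Of all pairs of members, TC004728 and TC008383 had the steadiest ratio, with an SD of 0.106 on the log2 scale. TC004728 had 1.73 to 2.63 times the counts of TC008383 in every female, with a median of 2.09. TC004728 itself ran from 94.7 to 167 cpm and TC008383 from 47.5 to 83.6. Both were called lower in Hot (log2 fold changes of -0.06 ± 0.025 and -0.08 ± 0.027, edgeR, adjusted p = 0.0458 and 0.0257). Neither was called with summed counts (adjusted p = 0.385 and 0.190) or in limma-voom (adjusted p = 0.291 and 0.306 with an estimated correlation). The correlation of their levels over all females was 0.63, and their ratio varied less than either level.

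None of the 56 genes of the study's list of reproduction genes was a member, and 46 of them had at least 20 cpm. The nearest were Piwi (TC008711), a germ line RNA-silencing protein, with an SD of 0.159 at rank 360 of 6025, and Akt (TC007749), a kinase of insulin signalling, with 0.160 at rank 375. Vasa (TC010103), a germ line RNA helicase, had 0.315, and the yolk protein genes Vg1 (TC013602) and Vg2 (TC010839) had 1.20 and 1.25. Of the 46, 17 had an SD below that of the median gene.

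Single females stood apart in the members. The root mean square deviation of a female's 200 members from their means was 0.0951 to 0.311, with a median of 0.122. It was highest in the Hot-Dry female 710-3HD (0.311) and the Hot female 1077-4H (0.291), and the next highest was 0.228. In 710-3HD 37 members lay more than 3 SDs from their mean, up to 0.84 higher (TC013867) and 0.84 lower (TC013942). In 1077-4H, which had the fewest counts of all females, 34 did, down to 0.94 lower (TC000185). Over all females, total counts had a correlation of -0.022 with the deviation of the members, and a part of depth was not tested. For 65 of the 200 members the highest or the lowest female was 710-3HD or 1077-4H. Both also deviated in the other genes, as the plot of deviations shows, and their part in the SDs can be measured, by an alternative chosen after seeing the data: without them, 174 of the 200 members were chosen again and the members' median SD was 0.135. Without them 39 members were called in Hot, of which 17 were higher, and 57 in Hot-Dry. No share of all genes is set beside these counts.

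**Figure D5:**
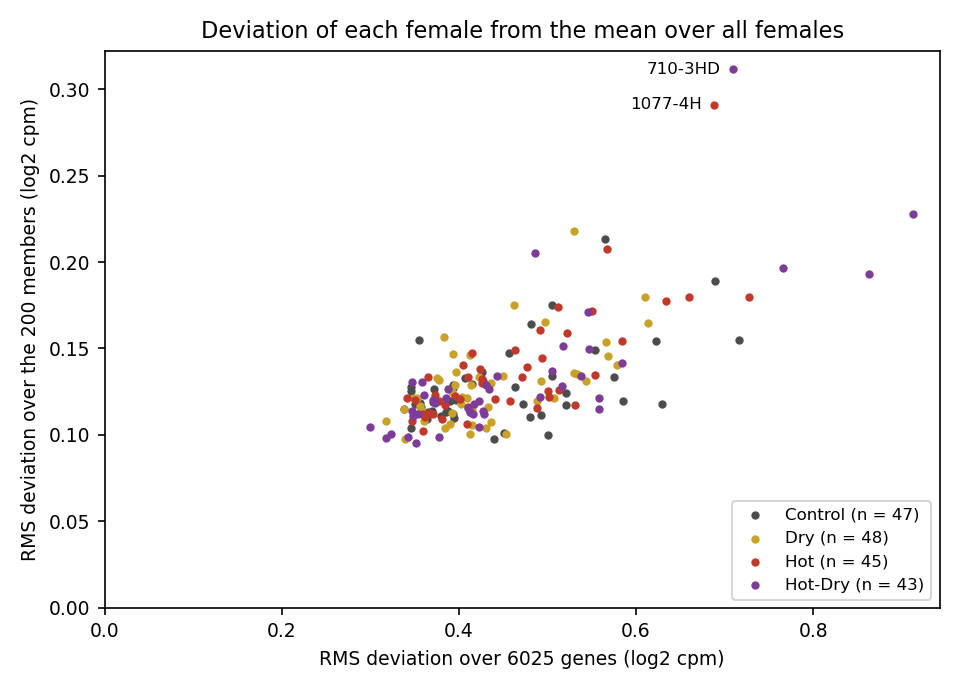
Root mean square deviation of each female from the mean over all females, over the 200 members (vertical) and over 6025 genes (horizontal), in log2 cpm, coloured by condition. Most females lie near 0.122 on the vertical axis; 710-3HD (0.311) and 1077-4H (0.291) stand above all others.

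Which genes are stable depends on what they are scaled to. With library size alone and no factors, 69 of the 200 members were among the 200 genes of smallest SD, and the members' median SD was 0.210. With relative log expression factors 191 were chosen again and with upper-quartile factors 184. With library size alone the median SD of the other genes was 0.316, and all 200 members had an SD below that of the median gene. The members were chosen for a small SD with TMM factors, so a larger SD without factors is partly set by the rule. Whether the varying part of the reads that the vitellogenins took contributed to it was not tested.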

How the data were processed

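The deposited values are counts of reads per gene in 183 females, made by the authors, who trimmed single-end reads, mapped them with STAR (version 2.5) to a *Tribolium castaneum* assembly and counted them with featureCounts. How strand and multiply mapped reads were handled is not given in the sources used here, so values of overlapping genes or close paralogs are uncertain. All 183 columns were used. Females were grouped by the labelled environment.

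Levels were cpm with TMM factors, and log2 cpm used a prior count of 2. Differences were tested with edgeR 4.0.16 (R 4.3.3), glmQLFit and glmQLFTest on the 4 condition means, for the 12113 genes that exceeded 0.5 cpm in 5 or more females; SEs are the log2 fold change over the root of F. DESeq2 1.42.0 and limma 3.58.1 served as alternatives. A simulation of 200 genes changed by 0.3 on the log2 scale in Hot against Control, on 12113 genes, was used to test the scripts. P-values measure the spread between these females; sisters share a vial.

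The members, lists and tests were chosen with earlier results of these data known. Named genes were the 10 members of smallest SD, the 2 last inside and 2 first outside, the 3 highest and 2 lowest in mean cpm, the 2 largest called rises and falls in each comparison, and the pair with the steadiest ratio. Planned parts on known reference genes and functional classes were not applied, since identifiers could not be matched to names, and promoters were not used here. Members with an interaction would have been named, but there were 0.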

Additional observations from a re-analysis of the deposited data

How the results depend on the processing

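Calls in Hot and Hot-Dry depended on how sisters were treated: 2 and 8 with 1 summed library for each family in each condition, 16 and 28 with such sums and a family block (chosen after seeing the data), 4 and 13 with limma-voom and a correlation, against 43 and 53. All these calls were also made by the main test, and the medians of the members' log2 fold changes stayed within 0.01 of it. Leaving out 1 family at a time gave 28 to 42 calls in Hot, the lowest without family 799, 41 to 54 in Hot-Dry, 0 to 1 in Dry (1 without family 432) and 0 for the interaction. The numbers of the sample names were not shown to pair females: deviations of females with the same number in different conditions had a mean correlation of 0.191, and only 73.9% of 261 pairs were above 0.1, as for other numbers of the same family (mean 0.196). With a replicate block 48 members were called in Hot and 60 in Hot-Dry, and 0 in Dry and for the interaction. With a family block 55 and 64 were called. Apart from the main test, summed counts without a block and limma-voom, no share of all genes is set beside these counts. They describe the members alone.

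The choice of members changed most without factors (69 chosen again, median SD 0.210). With a mean of at least 100 cpm 54 were chosen, since only 54 members reach it. With the SD around means of family and condition 133 were chosen again, in Control females alone 119 and in Hot-Dry females alone 124. The other alternatives gave 141 (median absolute deviation) to 200 (mean of at least 5 cpm). Leaving out 1 family gave 172 to 190, with a median SD of 0.134 to 0.139. The shares of condition and family moved to 3.68% to 4.14% and 21.0% to 21.4% under other factors. The planned comparison of promoter motifs was not run. Counting limits the SD of members near 20 cpm.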
